A study of Mus musculus with 12 samples.

Results

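The genes described here are 34 genes of fatty acid breakdown in mouse small intestine: the mitochondrial and peroxisomal oxidation enzymes, the carnitine shuttle, the ketone body enzyme Bdh1 and genes linked to the nuclear receptor PPARalpha. They were chosen by name from this pathway, and all 34 were found among the 55421 gene identifiers counted. All 34 also passed the filter on low counts, which kept 17394 genes. RNA was sequenced from 12 libraries in 3 groups of 4. The WT group was labelled only as wild type, with no Cre status given. The Apc group was VilCreER Apc fl/fl, which is a tamoxifen-activated Cre recombinase under the villin promoter, active in gut epithelium, with floxed alleles of the Wnt pathway inhibitor Apc. The Apc Eif3h group was VilCreER Apc fl/fl Eif3h fl/fl, which adds floxed alleles of Eif3h, a subunit of the translation initiation factor eIF3. Both Cre groups therefore carry floxed Apc. For all 3 groups the labels describe the same 2 injections of tamoxifen of 80 mg/kg, 24 hours apart. Day 7 is the label of WT and day 4 that of both Cre groups, while the treatment text gives 7 days for all, so genotype and day cannot be told apart in any comparison with WT. WT and Apc held 3 males and 1 female each, and Apc Eif3h held males only. Nothing in the labels ties the replicates to different animals, so the p-values reflect only how these libraries varied, and part of that may be technical.

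Fatty acids are burned in a chain of compartments. Acyl-CoA synthetases activate them, the carnitine shuttle carries long chains into mitochondria, and a cycle of dehydrogenation, hydration, second dehydrogenation and thiolysis then removes acetyl units and passes electrons to the respiratory chain through electron transfer flavoprotein. Peroxisomes run a similar cycle on very long and branched chains, and surplus acetyl-CoA can leave as ketone bodies. In the small intestine this machinery is prominent in the absorptive enterocytes of the villus, which handle dietary fat, and PPARalpha, activated by fatty acids, is a known inducer of many of its genes.

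PPARalpha and its partner RXR bind a direct repeat of AGGTCA with 1 base between the copies, so the promoters of the genes were searched for that element. RefSeq promoter windows (build GRCm38.p6, 250 bases before to 50 after the start) were at hand for 29 of the 34 genes. The motif AGGTCANAGGTCA was sought on both strands with at most 2 mismatches. It was found for 3 of 29 genes (10.3%), which were Slc25a20, Etfa and Echs1, against 4.4% of the 27025 genes with a window. The single copy AGGTCA, which lies within that motif, was present for 4 of the 29 (13.8%) against 18.1% of all genes. A match is a description of the letters in this window and not of binding. The stretches with the 3 matches are shown 5′ to 3′ along each gene, with the match in capitals, because these are the members with the nearest letters to that element, each with 2 mismatches to it. The stretch between Hadha and Hadhb, which encode the subunits of 1 enzyme and start head to head, is shown as well. Their RefSeq starts lie 273 bases apart on chromosome 5, and the letters are the 85 bases between the outermost annotated exons (GENCODE M21), in lower case throughout.
Slc25a20 chr9:108662126-108662155, plus strand: ccgcccacctgaatgtAGGTGAAAGGTCGg
Etfa chr9:55512224-55512443, minus strand: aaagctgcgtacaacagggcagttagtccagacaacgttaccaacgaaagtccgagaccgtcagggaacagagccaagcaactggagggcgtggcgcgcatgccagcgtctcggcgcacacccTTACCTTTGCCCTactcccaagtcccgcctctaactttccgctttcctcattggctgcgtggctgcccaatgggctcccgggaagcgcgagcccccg
Echs1 chr7:140116447-140116621, minus strand: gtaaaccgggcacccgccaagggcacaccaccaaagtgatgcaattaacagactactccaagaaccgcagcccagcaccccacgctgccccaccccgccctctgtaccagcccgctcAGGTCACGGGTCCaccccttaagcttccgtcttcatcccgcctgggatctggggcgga
Hadha to Hadhb chr5:30155163-30155247, plus strand: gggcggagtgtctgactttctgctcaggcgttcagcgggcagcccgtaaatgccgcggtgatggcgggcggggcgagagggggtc
Counting the start as 0, the match covered positions 6 to 18 in Slc25a20, -77 to -65 in Etfa and -83 to -71 in Echs1. In Etfa it lay on the opposite strand. As described under each role, Slc25a20 and Etfa were lower in both Cre groups than in WT, and Echs1 passed the test in none of the 3 comparisons.

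Levels are TMM-scaled CPM, counts relative to the library total of the filtered genes multiplied by its TMM scaling factor. They are given in the order of replicates 1 to 4, and means carry the SD of 4 libraries. Library totals were 10483112 to 21298301 counts. Eif3h itself was at 28.3, 43.1, 54.6 and 25.9 CPM in Apc Eif3h, below every library of WT (126 to 142) and Apc (158 to 175), with a log2 fold change from Apc of -2.13 (SE 0.19, adjusted p = 0.000405). Apc transcripts were at 94.2 ± 5.02, 114 ± 6.96 and 105 ± 12.01 CPM in WT, Apc and Apc Eif3h, and counts over the whole gene do not check the deletion of a floxed exon. The labelled tissue carried its markers, since all 15 enterocyte markers were measured in every group, at summed levels of 39000 to 53310 CPM (WT), 17860 to 27850 CPM (Apc) and 19770 to 32340 CPM (Apc Eif3h). Apc Eif3h replicate 3 stood apart from its group: it was the highest of the 4 for 31 of the 34 genes, and also the highest for Eif3h. WT replicate 1 carried adipocyte markers, with Adipoq at 35.3 CPM, against 5.06 in WT replicate 2, 7.37 in Apc replicate 4 and at most 0.0446 in the other libraries. The adipocyte list summed to 138.7 to 538 CPM (WT), 48.3 to 157 CPM (Apc) and 55.9 to 81.4 CPM (Apc Eif3h), and Ucp1 did not exceed 0.0519 CPM. Much of these sums was Cidec, which is also in the list of other PPAR targets read below. Cidec alone was at 91.4 to 119.5 CPM (WT), 34.8 to 72.9 CPM (Apc) and 41.95 to 69.7 CPM (Apc Eif3h), so the sums do not measure fat tissue.

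Most of the pathway was lower in both Cre groups than in WT, and 1 of the 34 genes was called between the Cre groups. Against WT, 24 of the 34 genes were lower in Apc and 2 were higher, Acot1 and Acadl (edgeR quasi-likelihood test, Benjamini-Hochberg adjusted p below 0.05 over all genes tested, the rule for every call here). Over all 17394 genes, 24.1% were called lower and 27.7% higher in this comparison. The median log2 fold change of the 34 was -0.60, beside -0.0099 over all genes. Apc Eif3h against WT gave 25 genes lower and 1 higher, Acot1, with a median of -0.58, where 28.1% of all genes were lower and 29.8% higher. Between Apc Eif3h and Apc 1 gene was called, Eci2, which was lower, and 0 were higher, with a median of 0.04, where 2.78% of all genes were lower and 4.27% higher. At an unadjusted p below 0.05, 6 of the 34 differed between the Cre groups. The share of all genes under this rule was not counted, so the 6 cannot be set against a background and are not read as a result. DESeq2 called 2 of the 34 lower and 1 higher, beside 694 lower and 1057 higher over all genes. The comparisons with WT share the WT libraries, and the other pairs share a group as well. With library totals in place of TMM factors the median of all genes moved to 0.22 in Apc against WT and 0.17 in Apc Eif3h against WT. The shares of all genes then called lower and higher were 13.8% and 39.2% in the former and 18.3% and 38.0% in the latter, and 19 and 17 of the 34 genes were lower. In bulk tissue, fewer cells of a type and less RNA per cell cannot be told apart, here or in any later result.

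**Figure D1:**
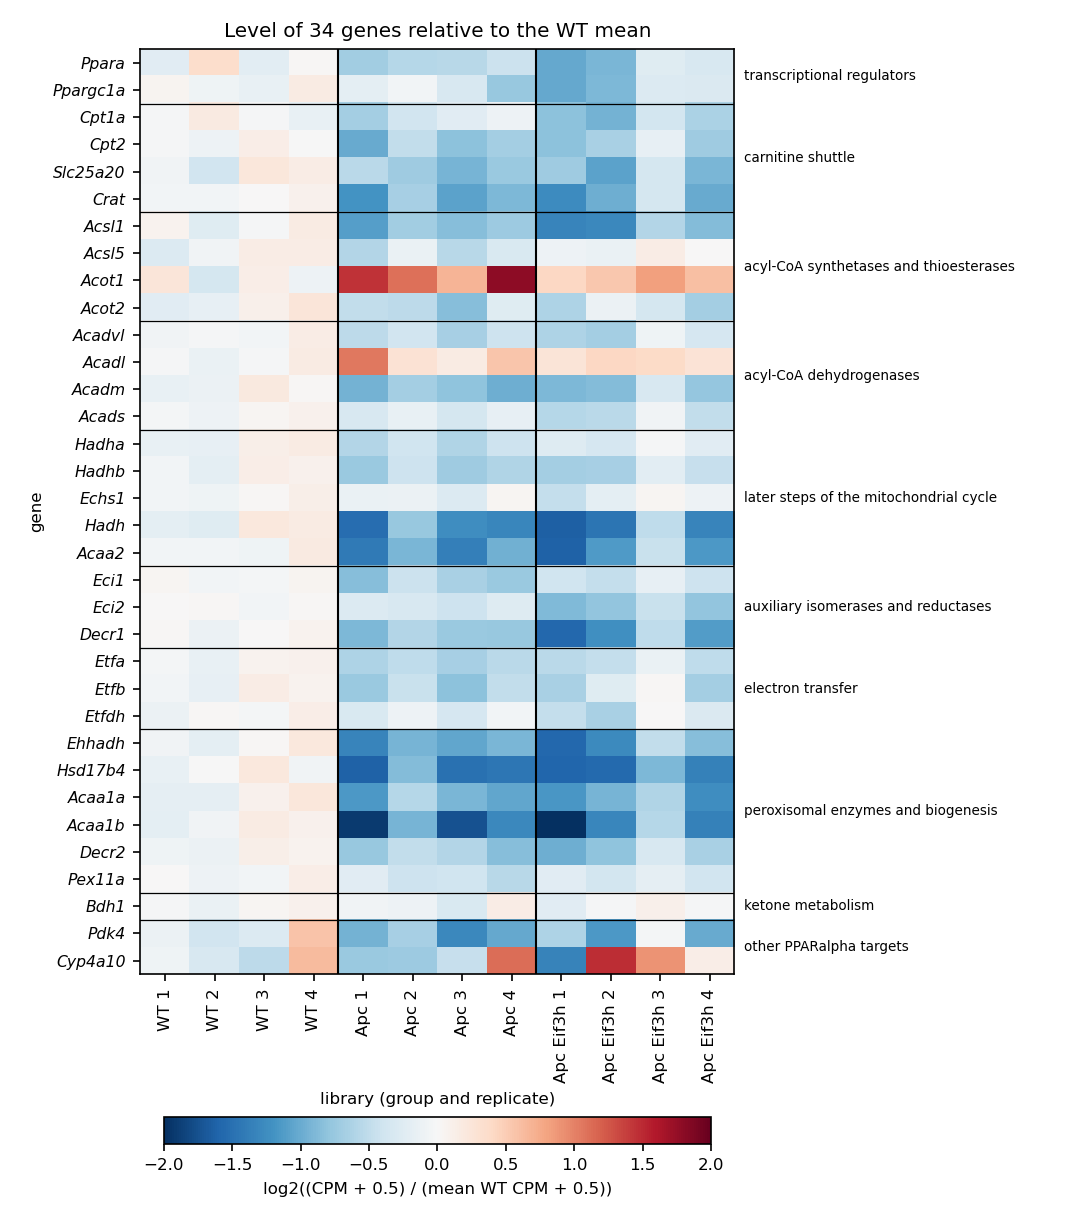
Level of each of the 34 genes (rows, by role) in each of the 12 libraries (columns), as log2 of CPM plus 0.5 over the WT mean plus 0.5, blue for lower and red for higher. Most rows are blue in the 8 Cre libraries, Acot1 and Acadl are red, and Apc Eif3h replicate 3 is paler than the rest of its group.

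**Figure D2:**
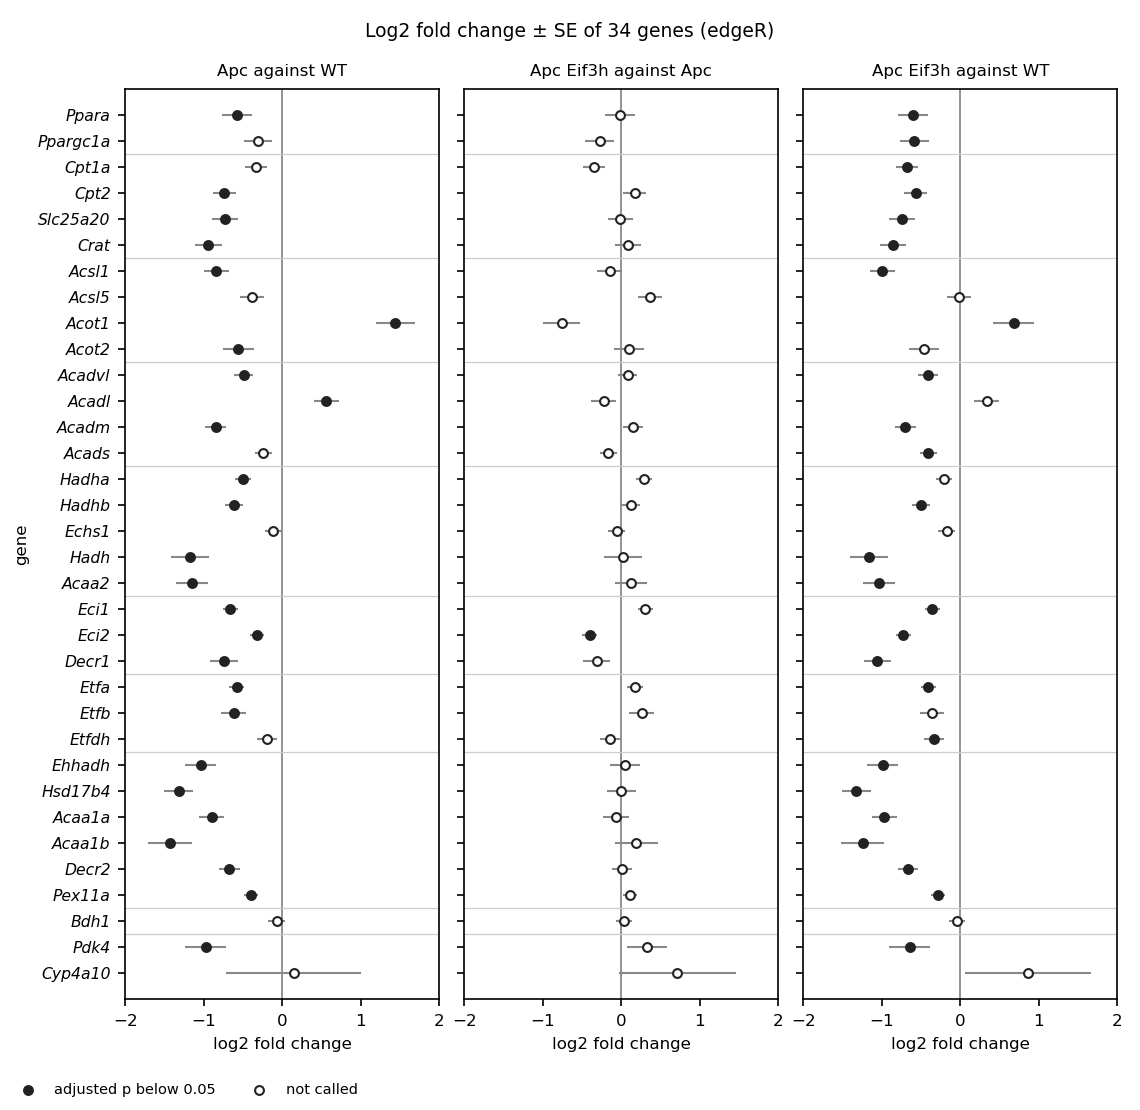
Log2 fold change (points) with its SE (bars) of each gene in the 3 comparisons, filled where the adjusted p was below 0.05. In Apc Eif3h against Apc the 1 filled point is Eci2 at -0.40.

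The transcriptional regulators were lower, Ppara in both comparisons with WT and Ppargc1a in 1 of them. Ppara encodes the fatty acid receptor itself. Its level was 18.5, 27.8, 18.6 and 22.1 CPM in WT, 13.2, 14.5, 14.7 and 15.9 in Apc and 10.4, 11.3, 18.3 and 17.4 in Apc Eif3h. Every Apc library and every Apc Eif3h library lay below the lowest WT library. The log2 fold change was -0.58 (SE 0.19, adjusted p = 0.0228) in Apc and -0.60 (SE 0.19, adjusted p = 0.0172) in Apc Eif3h, and the first was lost without WT replicate 2 (-0.44, adjusted p = 0.0787) or Apc replicate 1 (-0.53, 0.0594), the second without WT replicate 2 (-0.46, 0.0622). Both were lost with library totals only (-0.35, adjusted p = 0.144, and -0.41, 0.0866), and the first among males (-0.53, 0.101). Ppargc1a, a coactivator that raises mitochondrial gene expression, stood at 88.02 ± 8.37 CPM (WT), 71.03 ± 14.2 CPM (Apc) and 58.6 ± 15.6 CPM (Apc Eif3h). It fell against WT in Apc Eif3h, -0.59 (adjusted p = 0.0159), and its value in Apc was -0.31 (adjusted p = 0.173). The Ppargc1a call was lost with library totals only (-0.39, adjusted p = 0.0658) and among males (-0.53, 0.056).

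All 4 genes of the carnitine shuttle fell in Apc Eif3h against WT and 3 of 4 in Apc. Crat, the carnitine acetyltransferase for short chains, was at 170.1, 171, 179 and 188 CPM in WT, 77.5, 112, 84.1 and 94.9 in Apc and 74.1, 90.2, 139 and 88.1 in Apc Eif3h. No Cre library reached the lowest WT library. Crat fell by 1.92-fold in Apc, with a log2 fold change of -0.94 (SE 0.17, adjusted p = 0.000663), and its value in Apc Eif3h was -0.86 (SE 0.17, adjusted p = 0.000998). The inner membrane transferase Cpt2 went from 153 ± 10.3 CPM in WT to 91.5 ± 14.1 in Apc, -0.74 (adjusted p = 0.00112), and 103 ± 22.5 in Apc Eif3h, -0.57 (adjusted p = 0.00466). The carnitine carrier Slc25a20, whose start region holds the AGGTGAAAGGTCG match shown above, went from 88.8 ± 16.4 to 53.5 ± 5.84 and 53.04 ± 11.8 CPM, with -0.73 (adjusted p = 0.00255) in Apc and -0.74 (adjusted p = 0.00193) in Apc Eif3h. Cpt1a, the entry enzyme of the shuttle and a known point of control, was at 157 ± 15 CPM (WT), 125 ± 20.6 CPM (Apc) and 97.99 ± 17.6 CPM (Apc Eif3h). It fell in Apc Eif3h against WT, -0.68 (adjusted p = 0.00141), and missed the threshold in Apc against WT, -0.33 (adjusted p = 0.06505), and in Apc Eif3h against Apc, -0.35 (adjusted p = 0.159). Crat overlaps Dolpp1 on the opposite strand, a gene with 57.6% as many counts, and the strand setting is not given in the sources used here.

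The genes that activate fatty acids and those that release them from CoA did not move together. Acsl1, a long-chain acyl-CoA synthetase, was at 104, 83.8, 96.98 and 111 CPM in WT, 45.9, 60.7, 54.3 and 59.3 in Apc and 39.2, 39.9, 65.8 and 53.8 in Apc Eif3h, with no overlap between WT and either Cre group. It fell in Apc Eif3h, with a log2 fold change of -0.99 (SE 0.16, adjusted p = 0.000256), and in Apc, -0.84 (SE 0.16, adjusted p = 0.000986). Acsl5, a second long-chain synthetase, passed in none of the comparisons. It was at 1836 ± 249 CPM (WT), 1407 ± 212 CPM (Apc) and 1812 ± 162 CPM (Apc Eif3h), with -0.38 (adjusted p = 0.0558) in Apc against WT, -0.02 (adjusted p = 0.924) in Apc Eif3h against WT and 0.37 (adjusted p = 0.182) between the Cre groups.

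Acot1, a cytosolic acyl-CoA thioesterase, rose in both Cre groups. It was at 3.796, 2.35, 3.49 and 2.88 CPM in WT, 9.35, 7.32, 5.33 and 12.04 in Apc and 4.34, 4.76, 5.89 and 5 in Apc Eif3h. Every Cre library exceeded the highest WT library, while the Cre groups overlapped. The rise was 2.72-fold in Apc, with a log2 fold change of 1.44 (SE 0.25, adjusted p = 0.000523), and 1.602-fold in Apc Eif3h, 0.68 (SE 0.26, adjusted p = 0.0369). The call in Apc Eif3h was lost without WT replicate 2 (0.56, adjusted p = 0.107), WT replicate 4 (0.64, 0.0817), Apc Eif3h replicate 3 (0.61, 0.0763) or Apc Eif3h replicate 4 (0.68, 0.0658), among males (0.64, 0.0978) and with sex as a covariate (0.69, 0.0503). Its value in Apc Eif3h against Apc was -0.76 (SE 0.23, adjusted p = 0.0676), and it passed without Apc replicate 3 (-0.94, adjusted p = 0.0397) and in DESeq2 (-0.76, 0.0315). Its mitochondrial relative Acot2 lay in the other direction, at 5.99 ± 1.01 CPM in WT and 4.05 ± 0.769 in Apc, -0.56 (adjusted p = 0.0303), a call lost without any of WT replicates 3 and 4 or Apc replicates 1, 2 and 3 (adjusted p = 0.056 to 0.0907). The Acot2 call was also lost with library totals only (-0.32, adjusted p = 0.185) and among males (-0.47, 0.138). In Apc Eif3h Acot2 was at 4.35 ± 0.889 CPM, -0.46 (adjusted p = 0.0587) against WT. The pair share sequence: of all 36-base words in annotated Acot1 transcripts, 15.7% also occur in Acot2, and 28.2% of those of Acot2 occur in Acot1. The split of reads between them is therefore uncertain.

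Among the 4 acyl-CoA dehydrogenases, which catalyse the first step of the mitochondrial cycle for chains of different length, Acadm and Acadl moved in opposite directions. Acadm, for medium chains, was at 177, 181, 226 and 199.9 CPM in WT, 101, 123, 112 and 99.4 in Apc and 105, 108, 156 and 114 in Apc Eif3h. All Cre libraries lay below all WT libraries. Its log2 fold change was -0.85 (SE 0.13, adjusted p = 0.00025) in Apc and -0.70 (SE 0.13, adjusted p = 0.000706) in Apc Eif3h. Acadl, for long chains, was at 149.7, 138, 150.2 and 171 CPM in WT, 316, 187, 170.5 and 225 in Apc and 182, 204, 198 and 184 in Apc Eif3h. Apc replicate 1 was the highest, Apc replicate 3 fell just inside the WT range, and all Apc Eif3h libraries lay above it. Acadl rose by 1.47-fold in Apc, with a log2 fold change of 0.56 (SE 0.16, adjusted p = 0.0104). In Apc Eif3h against WT it was 0.34 (SE 0.16, adjusted p = 0.0855), not called, although it passed with only those 2 groups fitted (adjusted p = 0.0105), among males (0.00982), with sex as a covariate (0.00542) and with library totals only (0.0118). Acadvl, for very long chains, went from 131 ± 9.46 CPM to 93.02 ± 8.33 in Apc, -0.49 (adjusted p = 0.00522), and 98.4 ± 19.4 in Apc Eif3h, -0.41 (adjusted p = 0.0124). Both Acadvl calls were lost with library totals only (-0.26, adjusted p = 0.0528, and -0.22, 0.0943), and the second among males (-0.36, 0.0525). Acads, for short chains, was at 100.2 ± 5.61, 84.6 ± 6.22 and 75.5 ± 13.2 CPM. It fell in Apc Eif3h against WT, -0.41 (adjusted p = 0.00631), and missed the threshold in Apc, -0.24 (adjusted p = 0.07595), and the Acads call was lost with library totals only (-0.21, adjusted p = 0.0523). Acadvl shares 31.5% of its 36-base words with its neighbour Dvl2 on the opposite strand.

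In the later steps of the cycle 4 of 5 genes fell in Apc and 3 of 5 in Apc Eif3h, and the spread of sizes was wide. Hadh, the hydroxyacyl-CoA dehydrogenase for shorter chains, was at 1210, 1171, 1614 and 1561 CPM in WT, 484, 823, 588 and 562 in Apc and 447, 507, 975 and 554 in Apc Eif3h. Each Cre library was lower than each WT library, with Apc Eif3h replicate 3 nearest to them. Hadh fell by 2.26-fold in Apc, -1.18 (SE 0.25, adjusted p = 0.00172) on the log2 scale, and by 2.24-fold in Apc Eif3h, -1.16 (SE 0.25, adjusted p = 0.00154). Acaa2, the mitochondrial ketoacyl-CoA thiolase of the last step, was at 210, 210.4, 205 and 247 CPM in WT, 81.3, 115, 84.6 and 111 in Apc and 70.8, 98.7, 159.5 and 98.03 in Apc Eif3h. Again no libraries overlapped, and the log2 fold change was -1.15 (SE 0.20, adjusted p = 0.000631) in Apc and -1.03 (SE 0.20, adjusted p = 0.00103) in Apc Eif3h. Echs1, the short-chain enoyl-CoA hydratase, was at 149 ± 9.06, 137 ± 12.4 and 132 ± 19.4 CPM, and passed in no comparison, with -0.12 (adjusted p = 0.374) in Apc and -0.17 (adjusted p = 0.179) in Apc Eif3h, each against WT. Hadha and Hadhb, the alpha and beta subunits of the trifunctional protein for long chains, went down side by side in Apc. Hadha was at 347, 342, 414 and 427 CPM in WT, 254, 290.4, 252 and 287 in Apc and 319, 304, 375 and 327 in Apc Eif3h, and Hadhb at 108 ± 10.7, 70.1 ± 7.38 and 76.2 ± 12.1. Against WT the Apc values were -0.50 (adjusted p = 0.00168) for Hadha and -0.62 (adjusted p = 0.00101) for Hadhb. In Apc Eif3h Hadhb fell, -0.50 (adjusted p = 0.00317), and Hadha was not called, -0.21 (adjusted p = 0.0992). All Apc Eif3h libraries exceeded all Apc libraries for Hadha, but the difference missed the threshold, 0.29 (SE 0.10, adjusted p = 0.111). Echs1 overlaps Paox on the opposite strand, a gene with 15.1% as many counts.

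The auxiliary enzymes, which prepare unsaturated fatty acids for the cycle, fell in all 3 cases against WT in both Cre groups, and 1 of them was the sole gene called between the Cre groups. Eci2 (chromosome 13, 34977748 to 35027096, minus strand, GRCm38) encodes an enoyl-CoA isomerase found in mitochondria and peroxisomes. It was at 60.4, 61.2, 57.9 and 61.05 CPM in WT, 49.8, 48.1, 44.8 and 49.98 in Apc and 32.4, 34.6, 44.1 and 34.5 in Apc Eif3h. The 3 groups formed 3 separate ranges, with Apc between WT and Apc Eif3h, and Apc Eif3h replicate 3 lay just below the lowest Apc library. Eci2 fell by 1.32-fold from Apc to Apc Eif3h, -0.40 (SE 0.09, adjusted p = 0.02295) on the log2 scale, and the differences from WT were -0.32 (SE 0.09, adjusted p = 0.0112) in Apc and -0.72 (SE 0.09, adjusted p = 4.43e-05) in Apc Eif3h. The call between the Cre groups was lost with any 1 of Apc replicates 1, 2 and 4 or Apc Eif3h replicates 1, 2 and 4 left out (adjusted p = 0.0534 to 0.0667). It was also lost with no filter on low counts (0.0638), among males (0.0766) and with only these 2 groups fitted (0.0555), at log2 fold changes of -0.35 to -0.40 throughout. The fall in Apc against WT shrank to -0.09 (adjusted p = 0.404) with library totals only. Eci1, the mitochondrial isomerase, ran differently, at 83.8, 78.97, 80.02 and 85.3 CPM in WT, 45.2, 60.8, 52.2 and 48.6 in Apc and 62.2, 58.8, 73.2 and 61.7 in Apc Eif3h. WT lay above both other groups, which overlapped. It fell against WT in Apc, -0.66 (SE 0.10, adjusted p = 0.00017), and in Apc Eif3h, -0.36 (SE 0.10, adjusted p = 0.00697), the latter lost with library totals only (-0.16, adjusted p = 0.115). Apc Eif3h against Apc was 0.31 (SE 0.10, adjusted p = 0.0778), and this passed without Apc replicate 2 (0.39, adjusted p = 0.0376) and in DESeq2 (0.31, 0.032). Decr1, a mitochondrial dienoyl-CoA reductase, was at 214, 193, 210.2 and 221 CPM in WT, 112, 139, 126 and 124 in Apc and 70.2, 89.7, 147 and 95.8 in Apc Eif3h. It was below WT in all Cre libraries, with log2 fold changes of -0.74 (SE 0.17, adjusted p = 0.00344) in Apc and -1.05 (SE 0.17, adjusted p = 0.000287) in Apc Eif3h. Between the Cre groups it was -0.31 (SE 0.17, adjusted p = 0.297), and -0.53 (adjusted p = 0.0105) without Apc Eif3h replicate 3, the 1 library of that group above the Apc range.

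**Figure D3:**
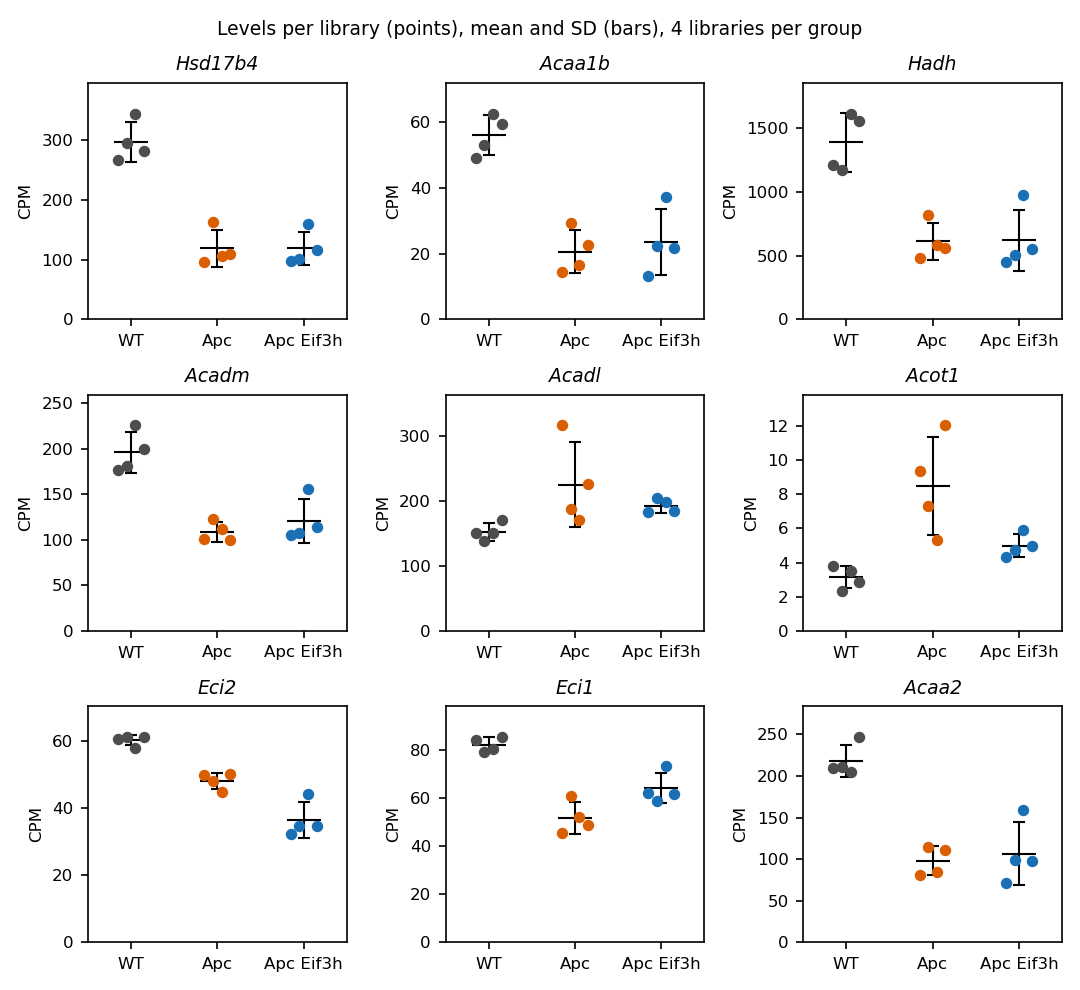
CPM of 9 of the genes (panels, each axis from 0) in the 4 libraries of each group (points), with the mean and SD (bars). Eci2 steps down over the 3 groups, Acot1 is higher in both Cre groups, Acadl was called higher in Apc alone, and the other 6 genes are lower in both Cre groups than in WT.

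The electron transfer genes fell in Apc for both flavoprotein subunits, while the oxidoreductase that follows missed the threshold. Etfa, the alpha subunit of electron transfer flavoprotein, was at 213, 198, 231 and 233 CPM in WT, 142, 154, 138 and 151 in Apc and 149.9, 156, 199 and 154 in Apc Eif3h. Apc libraries lay below the WT range, and Apc Eif3h replicate 3 reached into it. Its log2 fold change was -0.58 (SE 0.10, adjusted p = 0.000436) in Apc and -0.41 (SE 0.10, adjusted p = 0.00342) in Apc Eif3h. The beta subunit Etfb went from 43.8 ± 4.16 to 28.5 ± 3.77 CPM in Apc, -0.62 (adjusted p = 0.00543), and 34.1 ± 8.29 in Apc Eif3h, -0.36 (adjusted p = 0.0626), the latter passing without Apc Eif3h replicate 3 (-0.50, adjusted p = 0.00777). Etfdh, which hands the electrons to ubiquinone, was at 169.7 ± 12.9, 149 ± 15.2 and 134 ± 26.9 CPM, with -0.19 (adjusted p = 0.227) in Apc and -0.34 (adjusted p = 0.0391) in Apc Eif3h. Of the 36-base words of Etfb 46.4% also occur in Gm45233, so its counts are uncertain. The Etfdh call in Apc Eif3h was lost without any 1 of WT replicates 2, 3 and 4 or of Apc Eif3h replicates 1, 2 and 4 (adjusted p = 0.0563 to 0.107). It was also lost with library totals only (-0.14, 0.290), with no filter, among males, with sex as a covariate and with only the 2 groups fitted (0.0637 to 0.118).

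The peroxisomal genes fell throughout: 6 of 6 were lower than WT in Apc (median log2 fold change -0.97) and 6 of 6 in Apc Eif3h (median -0.98), and 0 of 6 differed between the Cre groups (median 0.03). Hsd17b4, the bifunctional enzyme that hydrates and oxidises very long and branched chains, was at 268, 295, 344 and 282 CPM in WT, 96.9, 164, 106 and 109 in Apc and 98.3, 101, 159.5 and 117 in Apc Eif3h. Both Cre groups lay wholly below WT and overlapped each other. It fell by 2.501-fold in Apc, -1.32 (SE 0.18, adjusted p = 0.000126) on the log2 scale, and the value in Apc Eif3h was -1.32 (SE 0.18, adjusted p = 8.44e-05). Ehhadh, the other bifunctional enzyme and a classical PPARalpha target, was at 199, 181, 213 and 241 CPM in WT, 82.8, 109.5, 102 and 111 in Apc and 70.2, 85.9, 149 and 115 in Apc Eif3h. It too was lower in every Cre library, with -1.04 (SE 0.19, adjusted p = 0.000876) in Apc and -0.99 (SE 0.19, adjusted p = 0.000967) in Apc Eif3h. Acaa1b, a peroxisomal thiolase, had the largest fall of the 34 genes in Apc. It was at 48.97, 52.98, 62.5 and 59.3 CPM in WT, 14.4, 29.2, 16.4 and 22.5 in Apc and 13.2, 22.3, 37.4 and 21.6 in Apc Eif3h, with no overlap of either group with WT. The log2 fold change was -1.43 (SE 0.28, adjusted p = 0.00107) in Apc, a fall of 2.698-fold, and -1.24 (SE 0.27, adjusted p = 0.00207) in Apc Eif3h. Its paralogue Acaa1a, at 329.9 ± 46.8 CPM (WT), 177 ± 32.6 CPM (Apc) and 169 ± 35.3 CPM (Apc Eif3h), gave -0.90 (adjusted p = 0.000703) and -0.97 (adjusted p = 0.000338). Of the 36-base words of Acaa1b 37.2% also occur in Acaa1a, so the split between these is uncertain. Decr2, the peroxisomal dienoyl-CoA reductase, gave -0.68 (adjusted p = 0.00114) in Apc and -0.67 (adjusted p = 0.00102) in Apc Eif3h. Pex11a, which acts in peroxisome division, went from 58.8 ± 4.24 to 44.7 ± 4.18 CPM in Apc, -0.40 (adjusted p = 0.00238), and 48.2 ± 3.48 in Apc Eif3h, -0.29 (adjusted p = 0.0134). With library totals only the Pex11a values were -0.16 (adjusted p = 0.112) and -0.09 (0.387), and with no filter the second was -0.26 (0.062). Acaa1a overlaps Myd88 on the opposite strand, a gene with 18.1% as many counts. Within the Hsd17b4 gene lies the pseudogene Cd63-ps on the same strand, counted separately with 22.6% as many counts.

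Bdh1, which interconverts the ketone bodies acetoacetate and hydroxybutyrate, passed the test in none of the comparisons. It was at 183, 169.6, 190.5 and 197 CPM in WT, 175, 173, 149 and 206 in Apc and 157, 181, 199 and 181 in Apc Eif3h, and all groups overlapped. The log2 fold change was -0.07 (SE 0.10, adjusted p = 0.563) in Apc and -0.04 (SE 0.10, adjusted p = 0.752) in Apc Eif3h, each against WT, and 0.03 (SE 0.10, adjusted p = 0.883) between the Cre groups. Pdk4, a kinase that shuts down pyruvate dehydrogenase when fat is burned and is induced by PPARalpha, was at 51.9, 43.1, 46.3 and 83.5 CPM in WT, 28.9, 35.2, 22.8 and 27.4 in Apc and 36.4, 25.1, 54.7 and 27.7 in Apc Eif3h. All Apc libraries lay below the WT range, Apc Eif3h replicate 3 lay within it, and the high WT value was that of replicate 4, the female. Pdk4 fell in Apc, -0.98 (SE 0.26, adjusted p = 0.00743), and in Apc Eif3h, -0.65 (SE 0.26, adjusted p = 0.0469). The second call was lost without WT replicate 4 (-0.39, adjusted p = 0.183), WT replicate 1 (-0.68, 0.0608) or Apc Eif3h replicates 1, 2 or 4 (0.0802 to 0.126), and among males the Apc value was -0.73 (0.0536). The Pdk4 call in Apc Eif3h was lost as well with library totals only (-0.45, adjusted p = 0.113), with no filter, among males, with sex as a covariate and with only the 2 groups fitted (0.073 to 0.2097). Cyp4a10, a fatty acid hydroxylase strongly induced by PPARalpha in liver, was near the limit of detection, at 0.852, 0.641, 0.499 and 1.73 CPM in WT, 0.356, 0.366, 0.544 and 2.595 in Apc and 0.0668, 3.46, 2.17 and 1.07 in Apc Eif3h. Its groups overlapped and it passed in no comparison, with 0.15 (adjusted p = 0.896) in Apc and 0.86 (adjusted p = 0.373) in Apc Eif3h. It shares 32.9% of its 36-base words with Cyp4a32, so the source of these few reads is uncertain.

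Levels between genes were compared per kilobase of exon (CPM per kb). The length was that of all exons of all annotated transcripts of a gene merged, such as 1516 bases for Acaa2 and 8730 for Hadha. The order of genes therefore depends on the annotation as well as on the level. In WT the highest was Acsl5 at 378 ± 51.2 CPM per kb, followed by Hadh at 279 ± 46.3, Acaa2 at 144 ± 12.8 and Etfa at 119 ± 8.95. The next, Hsd17b4 (87.3 ± 9.78), Acadl (75.97 ± 6.76), Acaa1a (74.7 ± 10.6) and Ehhadh (69.9 ± 8.37), lay within or close to each other's SD. The lowest were Cyp4a10 at 0.441 ± 0.262, Acot1 at 0.799 ± 0.164 and Acot2 at 2.73 ± 0.4601 CPM per kb. The order changed in the Cre groups. In Apc Acadl, at 112 ± 32.4 CPM per kb, stood beside Hadh (123 ± 29.3) within their SD and above Acaa2 (64.7 ± 11.6), whereas in WT it was below both. In Apc Eif3h the values were 95.8 ± 5.29 for Acadl, 125 ± 48.3 for Hadh and 70.4 ± 24.7 for Acaa2. These values and those of each gene by group are descriptions of level, not tests.

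The genes around the 34 were read from 6 lists, beside the shares of all genes called higher and lower, which were 27.7% and 24.1% in Apc against WT, 29.8% and 28.1% in Apc Eif3h against WT and 4.27% and 2.78% between the Cre groups. Of 8 tested genes of ketone body synthesis and use, 1 rose and 3 fell in Apc against WT, and 2 rose and 4 fell in Apc Eif3h against WT, with medians of -0.21 and -0.54. Oxct1, which uses ketone bodies, rose from 162 ± 24.3 to 293 ± 54.2 CPM in Apc, 0.86 (SE 0.14, adjusted p = 0.000392). The transporter Slc16a6 fell, -0.98 (SE 0.18, adjusted p = 0.000704). Bdh2 fell from a level of 1.58 ± 0.834 CPM, -1.16 (SE 0.45, adjusted p = 0.0485), a call that held in 5 of 16 alternative fits.

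Other mitochondrial oxidation genes went both ways in Apc. Of 20 tested, 6 rose and 6 fell (median -0.09), and in Apc Eif3h 2 rose and 9 fell (median -0.24), with 0 called between the Cre groups. The counts in Apc were near the shares over all genes. The synthetase Acsl3 rose, 0.90 (SE 0.23, adjusted p = 0.00581), as did Acad9, an assembly factor of respiratory complex I, 0.39 (SE 0.11, adjusted p = 0.0105), and Hsd17b10, 0.22 (SE 0.07, adjusted p = 0.0197). The Hsd17b10 call held in 11 of 16 alternative fits, the losses being among males, with no filter, and with WT replicate 4 or Apc replicate 1 or 2 left out. The Acad9 call held in 15 of 16. Malonyl-CoA decarboxylase (Mlycd), which lifts the block on Cpt1a, fell from 49.5 ± 3.99 to 28.03 ± 3.53 CPM, -0.82 (SE 0.12, adjusted p = 0.000133). Acacb, the carboxylase that makes the malonyl-CoA at mitochondria, also fell, -1.32 (SE 0.28, adjusted p = 0.00192), as did the dehydrogenase Acad11, -1.14 (SE 0.22, adjusted p = 0.00119).

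Other peroxisomal enzymes and transporters were mostly lower, with 20 of 31 tested falling and 2 rising in Apc (median -0.65) and 18 falling and 3 rising in Apc Eif3h (median -0.54). The isomerase Ech1 fell from 232 ± 16.1 to 139 ± 18.6 CPM, -0.74 (SE 0.11, adjusted p = 0.000163). The 2 that rose, Gnpat, 0.49 (SE 0.09, adjusted p = 0.000704), and Agps, 0.47 (SE 0.11, adjusted p = 0.00454), encode the peroxisomal enzymes that start ether lipid synthesis. Of the same list, Apc Eif3h against Apc gave 2 calls, 1 in each direction of 31 genes, near the 4.27% higher and 2.78% lower of all genes. Nudt19, a CoA hydrolase, rose from 65.9, 53.1, 47.2 and 59.2 to 77.4, 88.5, 76.6 and 82.5 CPM, 0.53 (SE 0.10, adjusted p = 0.0107). Acot6, a thioesterase of the Acot1 family, fell from 7.04, 5.75, 4.89 and 6.85 to 2.67, 3.84, 3.48 and 3.26 CPM, -0.88 (SE 0.17, adjusted p = 0.0107). Neither pair of groups overlapped, and both calls held in all 16 alternative fits. Of 15 peroxins, which build the organelle, 8 fell and 2 rose in Apc (median -0.23), and 6 fell and 3 rose in Apc Eif3h (median -0.15), with 0 called between them. Pex16 fell, -0.84 (SE 0.12, adjusted p = 0.00013), with Pex19, -0.50 (SE 0.12, adjusted p = 0.00394), and Pex11g, -0.47 (SE 0.13, adjusted p = 0.00763), while Pex26, 0.60 (SE 0.10, adjusted p = 0.000455), and Pex10, 0.32 (SE 0.10, adjusted p = 0.0193), rose. The Pex10 call held in 13 of 16 alternative fits, being lost without WT replicate 4 or Apc replicate 1 and among males, and the Pex11g call held in 15 of 16.

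The receptors, partners and coregulators of PPAR moved in both directions, with 7 of 15 falling and 2 rising in Apc and 6 each way in Apc Eif3h. Rxra, the partner receptor of PPARalpha, fell from 195 ± 9.64 to 115 ± 12.2 CPM in Apc, -0.76 (SE 0.12, adjusted p = 0.000364), and was -0.74 (SE 0.12, adjusted p = 0.00034) in Apc Eif3h. Creb3l3, a membrane-bound transcription factor of fasting metabolism, fell from 645 ± 125 to 305 ± 73.8 CPM, -1.08 (SE 0.22, adjusted p = 0.00158), and the orphan receptor Esrra gave -0.59 (SE 0.11, adjusted p = 0.00101). Pprc1, a coactivator related to Ppargc1a, rose from 24.2 ± 6.79 to 70.3 ± 9.72 CPM, 1.54 (SE 0.20, adjusted p = 8.91e-05). Between the Cre groups 3 rose and 1 fell, where the background was 4.27% and 2.78%. Lpin1, a phosphatidate phosphatase that also acts as a coactivator, fell from 12.7, 12.3, 15.3 and 14.01 CPM in Apc to 6.35, 7.36, 7.198 and 6.07 in Apc Eif3h, -1.01 (SE 0.14, adjusted p = 0.00266). The acetyltransferase Crebbp rose from 54.9, 57.5, 60.4 and 55.8 to 86.4, 89.04, 75.8 and 83.1 CPM, 0.55 (SE 0.07, adjusted p = 0.00266). Both differences separated the groups and held in all 16 alternative fits. Ep300, 0.35 (SE 0.09, adjusted p = 0.0303), and Rxrb, 0.23 (SE 0.06, adjusted p = 0.0362), also rose, and held in 4 and 3 of 16.

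Other PPAR targets fell in 9 of 15 tested in both Cre groups, with 0 higher and medians of -0.63 and -0.61. Fabp1, the fatty acid binding protein, was at 3221 ± 535 CPM (WT), 1955 ± 529 CPM (Apc) and 2287 ± 654 CPM (Apc Eif3h), with -0.72 (SE 0.25, adjusted p = 0.0265) and -0.49 (SE 0.25, adjusted p = 0.102). The call in Apc held in 9 of 16 alternative fits. Angptl4, a secreted lipase inhibitor, fell in Apc, -0.79 (SE 0.20, adjusted p = 0.00504), and was -0.40 (SE 0.19, adjusted p = 0.0941) in Apc Eif3h. The transporter Slc27a4 fell from 934 ± 191 to 361 ± 83.4 CPM, -1.37 (SE 0.25, adjusted p = 0.000714), and Txnip, an inhibitor of thioredoxin, gave -0.63 (SE 0.08, adjusted p = 9.17e-05). Between the Cre groups the monoglyceride lipase Mgll fell, -0.35 (SE 0.09, adjusted p = 0.0386), a call that held in 5 of 16.

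Cell type markers moved with these results. In both comparisons with WT 12 of 15 enterocyte markers fell (median log2 fold change -1.12 in Apc and -0.90 in Apc Eif3h) and 8 of 8 crypt base stem cell markers rose (medians 1.88 and 1.24). Of 6 markers of proliferating cells 6 rose in both (medians 1.46 and 1.29). The enterocyte marker Fabp2 is also in the list of other PPAR targets read above, so these lists are not fully separate. Other lists were also lower in Apc, with 7 of 7 T cell markers (median -1.69), 7 of 7 enteroendocrine (-1.19), 6 of 6 tuft cell (-1.07), 5 of 7 goblet cell (-1.09), 4 of 6 macrophage (-0.82), 4 of 6 endothelial (-0.56) and 4 of 7 enteric neuron and glia markers (-0.63). In Apc Eif3h against WT the same lists gave 6, 5, 6, 6, 4, 6 and 6 markers lower, and 5 of 6 fibroblast markers were lower. In Apc Eif3h against Apc 0 of 15 enterocyte markers were called and 3 of 8 stem cell markers were lower. The share of counts from mitochondrially encoded genes was 5.24% ± 0.412 (WT), 4.32% ± 0.352 (Apc) and 4.02% ± 0.601 (Apc Eif3h). Within Apc Eif3h, the mean centred log2 CPM of the 34 genes was -0.48, -0.25, 0.20 and -0.21, and that of the enterocyte markers -0.52, -0.48, 0.15 and -0.29. Replicate 3 was the highest of its group on both, and its Eif3h level was the highest of the 4. Replicate 4 came next on both, close to replicate 2 on the 34 genes, and its Eif3h level, 25.9 CPM, was the lowest of the 4. A link between Eif3h level and the 34 genes within the group was not tested. The part of cell composition in the levels of the 34 genes was not tested.

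**Figure D4:**
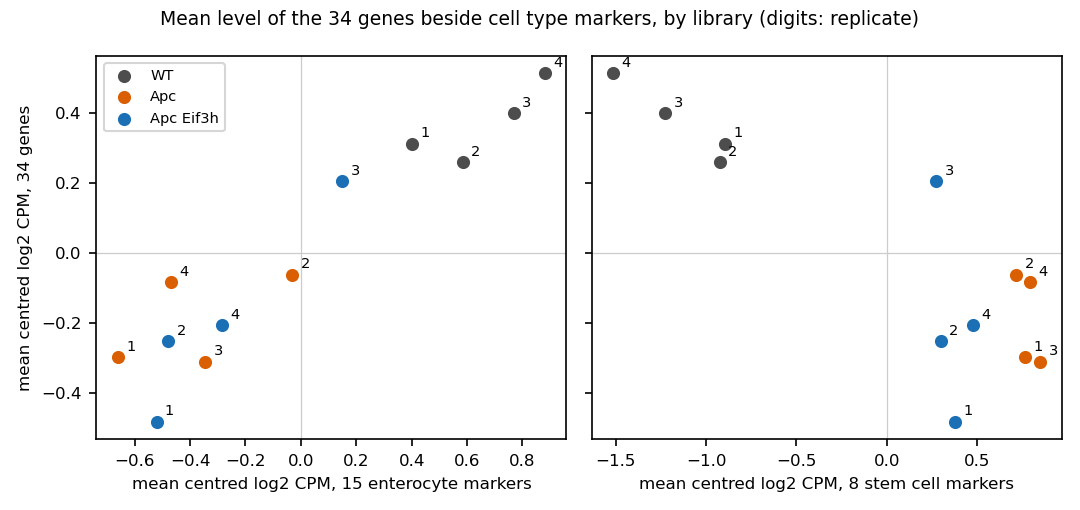
Mean centred log2 CPM of the 34 genes (vertical axis) against that of 15 enterocyte markers (left) and 8 stem cell markers (right), 1 point per library, coloured by group and numbered by replicate. The 4 WT libraries are the highest on the vertical axis, and Apc Eif3h replicate 3, at 0.20, is the highest of the 8 Cre libraries.

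The counts were read again without the libraries that stood apart. Without Apc Eif3h replicate 3, 26 genes were lower than WT and 0 higher in Apc Eif3h (median -0.70), and Eci2, Decr1 and Acads (-0.27, adjusted p = 0.0457) were lower than in Apc, with a median of -0.11 over the 34. Over all genes, 4823 were then lower and 5345 higher than WT. Between the Cre groups 615 of all genes were then lower and 1152 higher, beside 483 and 743 with every library. Without WT replicate 1, which held the most adipocyte transcripts, 25 genes were lower and 2 higher in Apc (median -0.64), and without Apc replicate 4 the counts were the same (median -0.63). The counts over all genes were 3903 lower and 4723 higher without WT replicate 1, and 3525 and 4307 without Apc replicate 4. The direction of each called gene was the same in all alternative fits.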

How the data were processed

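RNA was sequenced from 12 libraries of mouse small intestine, 4 each of WT, Apc and Apc Eif3h. The deposited values were raw counts per gene identifier for each library, made by the authors. HISAT2 2.1.0, featureCounts 1.6.4, Trim Galore 0.6.4 and FastQC 0.11.8 appear in the submitters' processing notes, with the build GRCm38. Not given in the sources used here are the strand setting, the handling of reads with several matches and the annotation release. Identifiers were named through GENCODE M21, which matched 55240 of them, and the other 181 held 0.00226% of counts. The 18 pairs of replicates differed by more than sampling noise, with a chi-square per gene of 17.5 to 51.5, so no pair looked like repeat sequencing of 1 library. That is not a check of quality. All 12 libraries were kept. Genes were filtered by group with filterByExpr, scaled by TMM and tested with edgeR 4.0.16 (R 4.3.3) in a quasi-likelihood fit of all 12 libraries with 1 mean per group, and p-values were adjusted by Benjamini-Hochberg over 17394 genes. The SE was taken as the log2 fold change over the square root of F. Alternatives were DESeq2 1.42.0, RLE factors, library totals only, no filter, sex as a covariate, males only, the 2 groups compared alone, the replicate number as a block, and leaving out each library. Shared sequence was measured as the share of 36-base words of a gene's transcripts found in other genes.

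The 34 genes and the pathway and marker lists were chosen with earlier results of these data known. Values in every library were given for genes called between the Cre groups, for the 6 called genes with the largest changes in each direction against WT, and for the gene with the smallest p of each role. From each pathway list up to 3 called genes per direction with the smallest p were named, with Fabp1 and Angptl4, and some genes of these lists are not reported here. Hadha was added after its values were seen.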

Additional observations from a re-analysis of the deposited data

Results flagged for a closer look

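In 4 of 102 groups of 4 libraries, 1 library lay far from the other 3 by Dixon's test at its 95% level, which chance does in about 1 group in 20. Acads was at 95.18 CPM in Apc Eif3h replicate 3, with the nearest library at 70.8. Etfa was at 199.2 CPM in the same library, with the nearest at 156.2. Acaa2 was at 246.9 CPM in WT replicate 4, with the nearest at 210.4. Cyp4a10 was at 2.595 CPM in Apc replicate 4, with the nearest at 0.5439.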

How the results depend on the processing

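Over the 16 alternatives of each comparison, 20 of 26 called genes in Apc against WT kept the call in every one, as did 17 of 26 in Apc Eif3h against WT and 0 of 1 between the Cre groups, and no called gene changed direction. The median of the 34 genes shrank to -0.37 in Apc and -0.38 in Apc Eif3h with library totals only. Between the Cre groups 0 of the 34 genes were lower with no filter, among males and in the fit of the 2 groups alone. DESeq2 gave 2 lower and 1 higher, beside 694 lower and 1057 higher of all genes. Of the 34, leaving out 1 library gave 0 to 3 lower and 0 to 1 higher. In Apc Eif3h against WT 2 genes were higher with library totals only and in the fit of the 2 groups alone, and 0 to 1 when 1 library was left out. Over all genes, 4192 were lower in Apc against WT, 2393 with library totals, and 4882 in Apc Eif3h against WT, 3175 with library totals. Between the Cre groups 743 were higher, against 485 with library totals and 400 among males, and 483 lower, against 306 with no filter and 259 among males. Leaving out 1 library gave 242 (without Apc replicate 3) to 1152 (without Apc Eif3h replicate 3) higher. The replicate numbers did not pair the samples (12 correlations of same-numbered deviations, -0.142 to 0.236). With the replicate block 2 genes were higher and 24 lower in Apc, 1 and 24 in Apc Eif3h, each against WT, and 0 and 1 between the Cre groups, where Pdk4 in Apc Eif3h against WT was the 1 call lost (-0.64, adjusted p = 0.0802). At this depth Cyp4a10 and Acot1 rested on few counts.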
